A study of Mus musculus with 16 samples.

Results

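Proteasome genes and their regulators were followed here in cultured mouse fibroblasts given a proteasome inhibitor. The members were the genes whose probe sets carried exactly 1 platform symbol of the form Psma, Psmb, Psmc, Psmd, Psme, Psmf or Psmg followed by a number, together with Pomp, Nfe2l1 and Ddi2. The interferon-inducible genes Psmb8, Psmb9, Psmb10, Psme1 and Psme2 were left out of the members. Each gene was read from its brightest probe set, by the mean over the 16 arrays, and 47 of the 19938 genes tested were members. By role they were 7 alpha and 7 beta subunits of the 20S core, 6 ATPases and 11 other subunits of the 19S cap, 8 assembly factors, the activators Psme3 and Psme4 with the inhibitor Psmf1, the tissue-restricted subunits Psma8 and Psmb11, and the regulator Nfe2l1. The pattern also caught Psmc3ip, a meiotic recombination factor, and Psme3ip1, a partner of Psme3, neither of which is a subunit. No probe set carried the symbol of Ddi2, the protease that activates NFE2L1, alone, so that member has no value here.

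The proteasome degrades proteins tagged with ubiquitin. Its 20S core is a barrel with outer rings of alpha subunits and inner rings of beta subunits, some of which carry the active sites, and the 19S cap binds ubiquitin chains and feeds unfolded substrates into the barrel with a ring of ATPases. Newly made subunits are put together by dedicated chaperones that do not stay in the finished particle. When the proteasome is inhibited, the membrane-bound transcription factor NFE2L1 escapes degradation, is cut by DDI2 and enters the nucleus with a small MAF partner, where it is known to raise transcription of proteasome genes, a feedback called the bounce-back response.

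Total RNA of mouse embryonic fibroblasts was measured on 16 whole-transcript arrays in a study built to find genes whose response to proteasome inhibition depends on ATF5, a stress-related transcription factor. The labels call the control line wild type, and it carried a scramble hairpin RNA, while the knockdown line stably expressed a hairpin RNA against Atf5. Each line was kept for 8 h either in DMSO, the vehicle, or with MG132 at 1 µM, a reversible inhibitor of the proteasome of the peptide aldehyde class, with 4 plates and 4 arrays per group. The labels give separate plates but not separate cultures or clones, so the p-values rest on the spread among plates, which may be technical. Each line is a single population, and a difference between the lines cannot be told apart from other differences between the 2 populations.

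Atf5 was lower in the knockdown line, by a modest margin. Its log2 signal was 8.68, 8.51, 8.46 and 8.62 on the control vehicle arrays and 8.32, 8.39, 8.28 and 8.41 on the knockdown vehicle arrays, and with MG132 it was 8.75, 8.72, 8.68 and 8.91 in control and 8.45, 8.43, 8.45 and 8.49 in knockdown cells. The groups of the 2 lines did not overlap in either condition, and knockdown minus control was -0.22 ± 0.05 with vehicle and -0.31 ± 0.05 with MG132 (limma adjusted p = 0.00321 and 0.000148). The fibroblast markers Vim and Fn1 were bright, with means of 14.16 and 13.62 over all arrays, and Lum was dim at 4.75. The 10 fibroblast markers averaged between 9.82 and 10.15 per array, and the markers of 6 other cell types between 6.44 and 8.21. With MG132, 1 of 10 fibroblast markers was higher and 5 lower in control cells and 3 and 4 in knockdown cells (limma adjusted p under 0.05). Of 30 other markers 6 were higher and 0 lower in each line. Among all genes tested 16.8% were higher and 19% lower in control cells, and 16.4% and 24.3% in knockdown cells. The part of the markers in the member results was not tested. Between the lines, knockdown against control, 3 fibroblast markers were higher and 3 lower with vehicle and 4 and 2 with MG132. Of the other markers these counts were 4 and 3 with vehicle and 2 and 6 with MG132. Among all genes tested 21.5% were higher and 17.9% lower with vehicle, and 17.7% and 20.3% with MG132. An axis of variation inside the groups carried 37.1% of their variance. Along this gradient the markers of the 6 other cell types moved with a median r of -0.42 to -0.69 and the 31 core subunits with 0.22. By class the median r was 0.22 for alpha, -0.22 for beta, -0.15 for ATPase and 0.32 for non-ATPase subunits, and -0.21 for assembly factors. The part of the gradient in the results was not tested beyond leaving out 4 arrays at its low end (control MG132 4, control vehicle 1 and 4 and knockdown vehicle 1). Without these arrays the vehicle difference of Atf5 was -0.12, with a limma adjusted p of 0.0511.

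With MG132 most subunit genes of control cells rose, by small amounts. Of the 47 members 34 were higher and 2 were lower, whereas 16.8% of all genes tested were higher and 19% were lower (either direction 35.8%), at a limma adjusted p under 0.05. The proteasome genes are bright, and among all genes with a mean log2 signal above 11, a level that 39 members passed, 29.5% were higher and 32.1% lower. The members held 31 subunits of the 20S core and the 19S cap, called core subunits here, without cap subunits under other symbols such as Sem1. All 31 had a positive difference, 27 past the threshold and 0 lower (0 also at an unadjusted p under 0.05). Their median was 0.26 (19.3% on the linear scale) against 0.028 for all genes. The ATPases stood highest with a median of 0.41 and 6 of 6 risen, followed by the beta subunits at 0.24 (6 of 7), the non-ATPase subunits at 0.24 (9 of 11) and the alpha subunits at 0.20 (6 of 7). The assembly factors had a median of -0.016, with 2 higher, 2 lower and 4 not past the threshold. With every array centred on its own median the split of all genes shifted from 3341 higher and 3796 lower to 2150 and 4624, and 23 of the 31 core subunits were then still past the threshold.

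**Figure D1:**
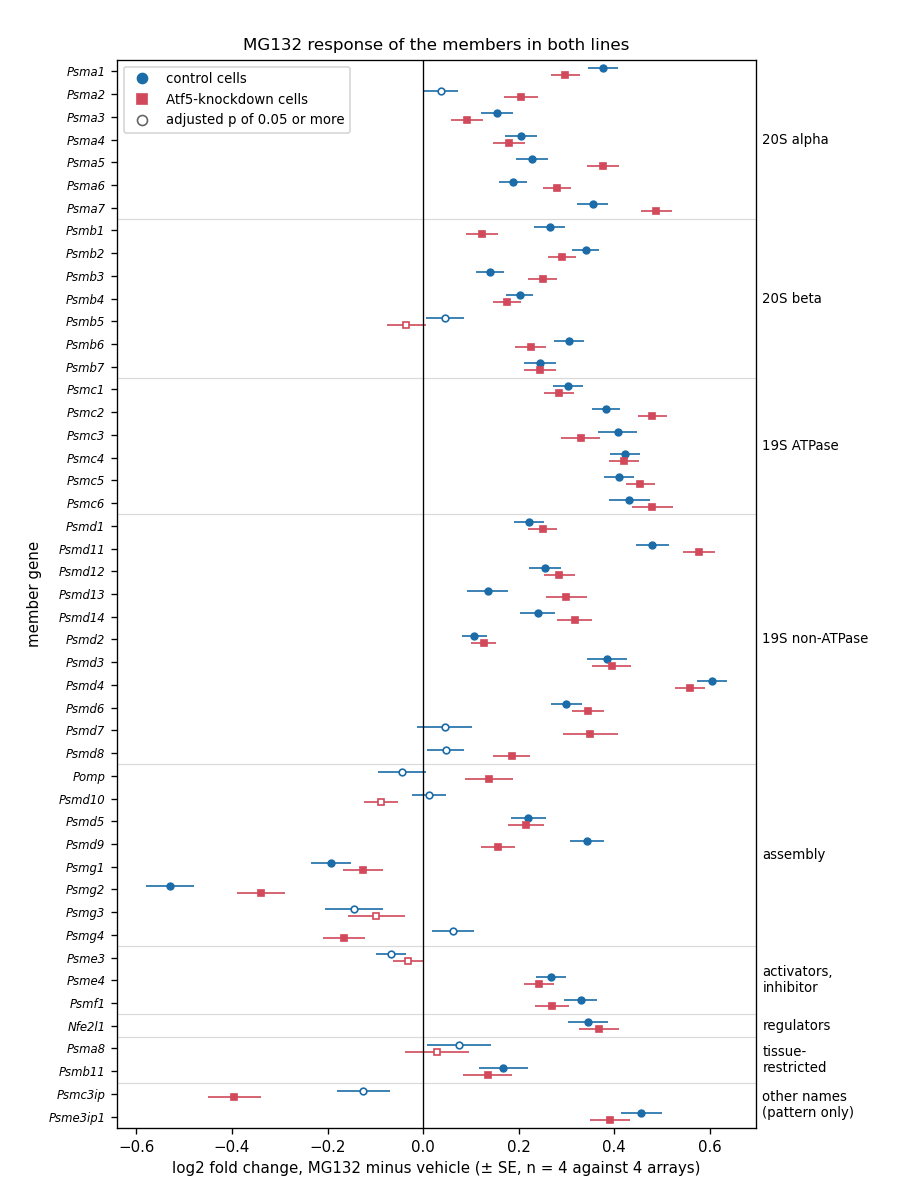
Log2 fold change of each of the 47 members with MG132 against vehicle (horizontal axis, ± SE, 4 against 4 arrays) in control cells (blue circles) and knockdown cells (red squares), grouped by role; open symbols had a limma adjusted p of 0.05 or more. Nearly all subunits of the 20S core and the 19S cap lie to the right of 0 in both lines, while the assembly factors run from Psmg2 at -0.53 to Psmd9 at 0.34 in control cells.

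In the alpha ring, which forms the gate of the 20S core, Psma1 had the highest response of the control cells and Psma2 the lowest. Psma1 read 12.25, 12.28, 12.23 and 12.23 on the control vehicle arrays and 12.61, 12.63, 12.67 and 12.59 on the control MG132 arrays, which do not overlap, and rose by 0.38 ± 0.03 (1.3-fold, limma adjusted p = 4.43e-08). Psma2 read 12, 12.08, 12.13 and 12.06 with vehicle and 12.15, 12.11, 12.10 and 12.06 with MG132. These arrays overlapped, and the difference was 0.037 ± 0.035 with a 95% interval of -0.037 to 0.11 and a limma adjusted p of 0.461. The other 5 alpha genes rose by between 0.15 (Psma3) and 0.35 (Psma7).

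Among the beta subunits the largest rise was that of Psmb2, a structural subunit, and the smallest difference was that of Psmb5, which carries the chymotrypsin-like site and is the chief target of MG132. Psmb2 read 12.89, 12.88, 12.93 and 12.86 with vehicle and 13.23, 13.25, 13.24 and 13.20 with MG132, without overlap, and rose by 0.34 ± 0.03 (limma adjusted p = 6.53e-08). Psmb5 read 13.48, 13.35, 13.45 and 13.37 with vehicle and 13.49, 13.48, 13.44 and 13.42 with MG132. Its groups overlapped, and the difference of 0.045 ± 0.04 had a 95% interval of -0.040 to 0.13, which leaves out the 0.24 median of its class. The other catalytic subunits did rise, Psmb6 (caspase-like) by 0.30 ± 0.03 and Psmb7 (trypsin-like) by 0.24 ± 0.03, as did Psmb1, Psmb3 and Psmb4, by 0.27, 0.14 and 0.20 (limma adjusted p between 6.43e-07 and 0.00109 over these 5). Psmb3 and Psmb5 are among the brightest members, and over the 31 core genes the response was smaller where the mean signal was higher (r = -0.39, across genes that share the arrays, a description). Arrays can compress the signal of bright probe sets, and its part in the differences between subunits was not tested.

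The 6 ATPases of the 19S base moved within a narrow range, from Psmc1 to Psmc6. Psmc6 read 12.28, 12.39, 12.42 and 12.35 with vehicle and 12.78, 12.87, 12.82 and 12.70 with MG132 and rose by 0.43 ± 0.04 (1.35-fold, limma adjusted p = 4.19e-07). Psmc1, whose tail helps to open the gate of the core, read 12.17, 12.18, 12.20 and 12.20 with vehicle and 12.53, 12.47, 12.45 and 12.51 with MG132 and rose by 0.30 ± 0.03 (limma adjusted p = 4.85e-07). In neither gene did the MG132 arrays overlap the vehicle arrays. The rises of Psmc2, Psmc3, Psmc4 and Psmc5 lay between 0.38 and 0.42. A second probe set of Psmc1, not used in the counts, rose by 0.17, so the height of that response depends on the probe set.

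The non-ATPase subunits of the cap spread more widely. Psmd4, a ubiquitin receptor of the cap, had the largest rise of all members in control cells. It read 11.44, 11.41, 11.39 and 11.36 with vehicle and 12, 12.03, 12.02 and 11.97 with MG132, far apart beside the spread of the arrays, and rose by 0.60 ± 0.03 (1.52-fold, limma adjusted p = 1.41e-10). Psmd11, a scaffold of the lid known to favour assembly of the 26S particle, rose by 0.48 ± 0.03 and Psmd3, another lid subunit, by 0.39 ± 0.04. Psmd14, the deubiquitinase of the lid, rose by 0.24 ± 0.04, and Psmd1 and Psmd2, the large scaffolds of the base, by 0.22 ± 0.03 and 0.11 ± 0.03. Psmd6 and Psmd12 rose by 0.30 and 0.26. Psmd7, the partner of Psmd14, read 12.04, 12.28, 12.20 and 12.24 with vehicle and 12.21, 12.26, 12.27 and 12.20 with MG132. Its groups overlapped and the difference was 0.045 ± 0.058 (limma adjusted p = 0.603), and that of the lid subunit Psmd8 was 0.047 ± 0.038 (adjusted p = 0.385). Psmd13 passed the threshold at 0.14 ± 0.04 (limma adjusted p = 0.0208) but not without control vehicle 3, control MG132 1 or control MG132 2, where the adjusted p was 0.0666, 0.0531 and 0.0747. Over all 27 alternatives run, this call was lost in 4 (limma adjusted p up to 0.198).

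Since the subunit genes moved together, their promoters were searched for the letters that NFE2L1 and NFE2L2 read with small MAF proteins, TGACNNNGC and the related TGAGNNNGC, and for CCAAT, the letters read by NF-Y, on both strands. RefSeq windows of 300 bases (250 before and 50 after a transcript start, GRCm38.p6) were matched to 39 members, 8 having none. Either form of the first motif lay in 13 of 27 windows of core subunits (48.1%) and in 27.8% of all 32851 windows, and by gene in 12 of 25 core subunits and 32.9% of 15614 genes tested. The TGACNNNGC form by itself was in 4 of the 27 (14.8%, all windows 12.4%), TGAGNNNGC in 11 (40.7% and 17.6%) and CCAAT in 10 (37.0% and 37.4%). The stretches below are shown because they hold the TGACNNNGC letters upstream of genes that did and did not pass the test, in capitals and read 5′ to 3′ along the gene's strand, where a match on the other strand shows as its reverse complement. They lie at chr14:54618014-54618062 on the minus strand for Psmb5, chr11:70525328-70525356 on the plus strand for Psmb6, chr14:45329577-45329625 on the plus strand for Psmc6, chr11:107479278-107479309 on the plus strand for Psmd12 and chr5:123228139-123228187 on the plus strand for Psmd9.
Psmb5: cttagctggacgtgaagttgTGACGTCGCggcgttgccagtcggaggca
Psmb6: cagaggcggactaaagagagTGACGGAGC
Psmc6: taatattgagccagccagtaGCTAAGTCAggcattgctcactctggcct
Psmd12: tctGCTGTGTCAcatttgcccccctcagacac
Psmd9: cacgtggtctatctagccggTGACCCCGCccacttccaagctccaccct
The motif begins 47, 9, 227, 247 and 31 bases before the start, in the same order. A match is a run of letters and not a measured site. Psmc6, Psmd12, Psmb6 and Psmd9 rose and Psmb5 did not pass the test, so that the letters were present on both sides of the threshold. The median response of the 12 core genes with either form was 0.23 in control cells, and that of the 13 without was 0.30, and in knockdown cells the medians were 0.28 and 0.30. The windows of Nfe2l1 itself held TGAGNNNGC on the other strand. In the stretches below the motif begins 207 and 179 bases before a transcript start, and the first also begins 11 bases before another start:
Nfe2l1: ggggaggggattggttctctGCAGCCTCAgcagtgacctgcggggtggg
Nfe2l1: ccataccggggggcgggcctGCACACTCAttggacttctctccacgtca
These are at chr11:96824110-96824158 on the minus strand and chr11:96830119-96830167 on the minus strand.

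The assembly factors were divided in control cells. PSMG1 and PSMG2 form a dimer that starts the alpha ring, and both genes fell with MG132 in control cells. Psmg2 read 10.94, 10.98, 11.05 and 10.92 with vehicle and 10.45, 10.50, 10.54 and 10.28 with MG132, and fell by 0.53 ± 0.05, to 0.693 of its vehicle level (limma adjusted p = 2.04e-07). Psmg1 read 10.71, 10.59, 10.63 and 10.71 with vehicle and 10.51, 10.48, 10.38 and 10.50 with MG132, and fell by 0.19 ± 0.04 (limma adjusted p = 0.00147). Neither gene's groups overlapped. Of the second chaperone pair of the alpha ring, Psmg3 differed by -0.14 ± 0.06 (limma adjusted p = 0.0742, and 0.00928 at -0.20 without control MG132 4) and Psmg4 by 0.062 ± 0.044 (adjusted p = 0.315).

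Pomp, which guides the completion of the core, did not pass the test in control cells. It read 11.42, 11.33, 11.33 and 11.32 with vehicle and 11.38, 11.31, 11.30 and 11.23 with MG132, overlapping ranges, with a difference of -0.045 ± 0.05 and a 95% interval of -0.15 to 0.062 (limma adjusted p = 0.543). The chaperones of the 19S base were split. Psmd9 read 9.90, 9.91, 9.79 and 9.82 with vehicle and 10.22, 10.22, 10.19 and 10.16 with MG132 and rose by 0.34 ± 0.04 (limma adjusted p = 5.81e-07). Psmd5 read 12.08, 12.05, 12.12 and 12.12 and 12.28, 12.38, 12.37 and 12.22 and rose by 0.22 ± 0.04 (adjusted p = 0.000139), and for both genes the groups stood apart. Psmd10, also called gankyrin, read 11.38, 11.33, 11.42 and 11.39 and 11.40, 11.43, 11.39 and 11.35, which overlap, with a difference of 0.012 ± 0.036 (adjusted p = 0.832).

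Nfe2l1, the regulator of the feedback, rose in message too. Its log2 signal was 11.62, 11.47, 11.53 and 11.54 on the control vehicle arrays and 11.92, 11.92, 11.86 and 11.84 on the control MG132 arrays, and it rose by 0.34 ± 0.04 (1.27-fold, limma adjusted p = 3.88e-06) without overlap. NFE2L1 is controlled mainly as a protein, which these arrays do not measure. Psmf1, a binding partner and in vitro inhibitor of the 20S core, rose by 0.33 ± 0.04, and the activator cap gene Psme4 by 0.27 ± 0.03 (limma adjusted p = 8.68e-07 and 3.27e-06). The nuclear activator gene Psme3 differed by -0.067 ± 0.032 (adjusted p = 0.117), while its partner Psme3ip1 rose by 0.46 ± 0.04 (adjusted p = 1.56e-07). The testis subunit Psma8 and the thymus subunit Psmb11 were dim, with mean signals of 6.06 and 6.67, and differed by 0.075 ± 0.067 and 0.17 ± 0.05. Of these Psmb11 passed at a limma adjusted p of 0.0157 and lost the call without control MG132 2 (0.0524). Over all 26 alternatives run, the Psmb11 call was lost in 4 (limma adjusted p up to 0.0946). Psmc3ip differed by -0.12 ± 0.06 (adjusted p = 0.0912, and 0.0486 without knockdown vehicle 4 or 0.0402 without control MG132 3). The Psmc3ip difference passed in 3 of the 27 alternatives run (limma adjusted p down to 0.036).

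**Figure D2:**
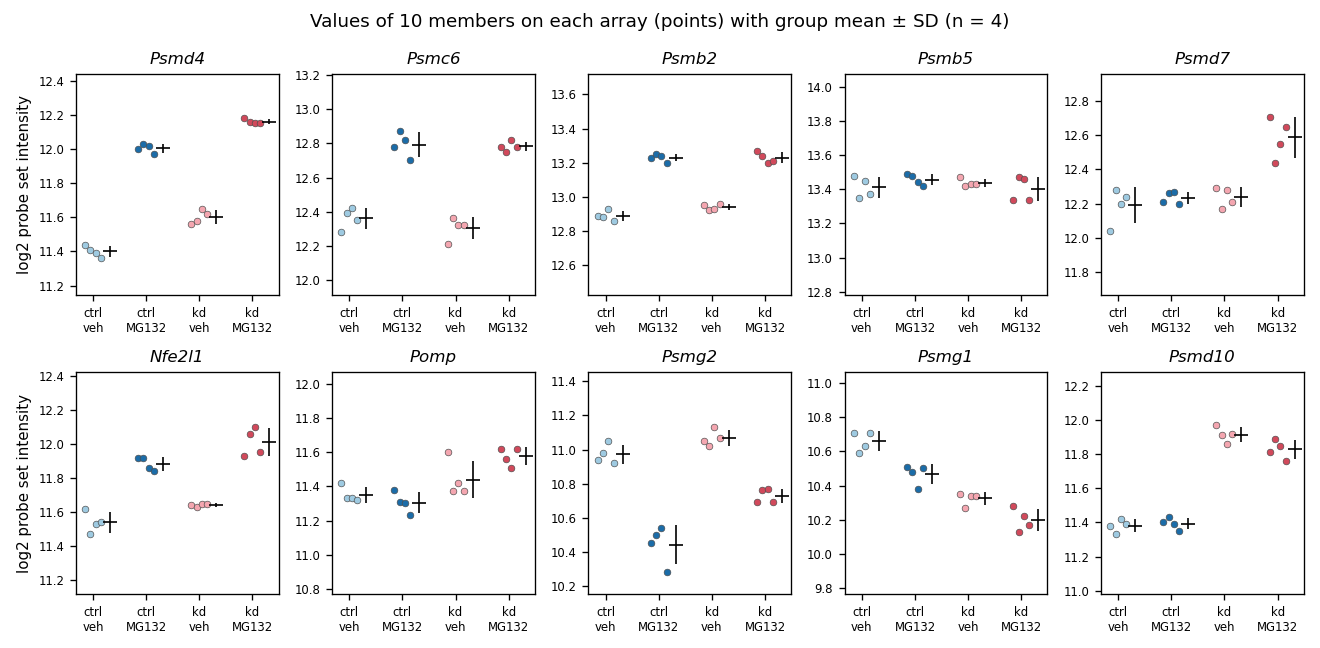
Log2 probe set intensity (vertical axes, which span the same width but do not start at 0) of 10 members on each of the 16 arrays, as points by group (ctrl, control; kd, knockdown; veh, vehicle), with the group mean ± SD beside them (n = 4). Psmd4, Psmc6, Psmb2 and Nfe2l1 stand higher with MG132 in both lines, Psmb5 is level, Psmd7 stands apart in the knockdown MG132 group, Psmg1 and Psmg2 are lower with MG132, and Psmd10 is higher in the knockdown line in both conditions.

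The same comparison in knockdown cells gave the same picture with few exceptions. Of the 47 members 38 were higher and 4 lower, beside 16.4% and 24.3% of all genes tested (either direction 40.7%) and 30.5% and 33.7% of genes with a mean above 11. Of the 31 core subunits 30 rose, 0 fell and Psmb5 did not pass, with a median of 0.29 against 0.033 for all genes. The class medians were 0.44 for the ATPases (6 of 6), 0.32 for the non-ATPase subunits (11 of 11), 0.28 for the alpha subunits (7 of 7) and 0.23 for the beta subunits (6 of 7). Centring the arrays on their medians turned 3276 higher and 4848 lower genes into 1833 and 5795, and 27 core subunits then passed.

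Psmd11 rose most, by 0.58 ± 0.03 (limma adjusted p = 9.23e-10), next to Psmd4. Psmd4 read 11.56, 11.58, 11.65 and 11.62 with vehicle and 12.18, 12.16, 12.15 and 12.15 with MG132, and rose by 0.56 ± 0.03 (1.47-fold, limma adjusted p = 3.87e-10). Psmc6 read 12.21, 12.36, 12.32 and 12.32 and 12.78, 12.75, 12.82 and 12.78, Psmc1 12.03, 12.02, 11.94 and 11.98 and 12.29, 12.26, 12.30 and 12.26, and they rose by 0.48 ± 0.04 and 0.28 ± 0.03 (adjusted p = 1.13e-07 and 8.75e-07). In all of these genes the vehicle and MG132 arrays stood apart.

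Of the alpha genes, Psma7 rose most, from 11.28, 11.23, 11.23 and 11.20 with vehicle to 11.78, 11.71, 11.70 and 11.70 with MG132, a rise of 0.49 ± 0.03 (limma adjusted p = 2.61e-09). Psma1 went from 12.51, 12.49, 12.48 and 12.45 to 12.83, 12.77, 12.73 and 12.79, a rise of 0.30 ± 0.03, and Psma3 had the smallest rise at 0.092 ± 0.034. The Psma3 call (limma adjusted p = 0.0378) was lost without knockdown vehicle 1 or 3 or without knockdown MG132 2 or 3, where the adjusted p lay between 0.0736 and 0.107. Over all 27 alternatives run, it was lost in 9 (limma adjusted p up to 0.637). Psmb2 went from 12.95, 12.92, 12.93 and 12.96 to 13.27, 13.24, 13.20 and 13.21 and rose by 0.29 ± 0.03 (adjusted p = 3.95e-07). Psmb5 read 13.47, 13.42, 13.43 and 13.43 and 13.34, 13.47, 13.46 and 13.34, overlapping again, with a difference of -0.035 ± 0.04 and a 95% interval of -0.12 to 0.050 (adjusted p = 0.507). Its interval again lay below the rises of Psmb6 and Psmb7, 0.23 and 0.24.

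The assembly factors were again divided in knockdown cells, with 3 higher, 3 lower and a median of -0.093. Psmg2 read 11.05, 11.02, 11.13 and 11.07 with vehicle and 10.69, 10.76, 10.77 and 10.69 with MG132 and fell by 0.34 ± 0.05 (limma adjusted p = 2.73e-05). Psmg4 read 10.34, 10.27, 10.34 and 10.27 and 10.10, 10.21, 10.15 and 10.10 and fell by 0.17 ± 0.04 (adjusted p = 0.00605). The groups of both genes were apart, but the Psmg4 call was lost in some alternatives. Psmg1 read 10.35, 10.27, 10.34 and 10.34 and 10.28, 10.13, 10.22 and 10.17, which overlap, and fell by 0.12 ± 0.04 (adjusted p = 0.0256). This call was lost without knockdown vehicle 1, 3 or 4 or knockdown MG132 2 or 4 (adjusted p 0.0507 to 0.0914). Over all 27 alternatives run, it was lost in 7 (limma adjusted p up to 0.184). Psmd5 rose from 12.30, 12.37, 12.35 and 12.34 to 12.56, 12.54, 12.59 and 12.53, by 0.21 ± 0.04, and Psmd9 from 10.04, 10.02, 10.07 and 10.12 to 10.23, 10.23, 10.24 and 10.18, by 0.16 ± 0.04 (adjusted p = 0.000152 and 0.00156).

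Pomp was the least settled of them. It read 11.60, 11.37, 11.42 and 11.37 with vehicle and 11.62, 11.56, 11.51 and 11.62 with MG132, overlapping at knockdown vehicle 1, and passed at 0.14 ± 0.05 (limma adjusted p = 0.0379, exact permutation p = 0.0857). The call was lost without knockdown vehicle 2, 3 or 4 or without knockdown MG132 1, 2 or 4 (adjusted p 0.0584 to 0.118). Over all 27 alternatives run, it was lost in 8 (limma adjusted p up to 0.22). Psmd10 read 11.97, 11.91, 11.86 and 11.92 and 11.81, 11.89, 11.85 and 11.76 and differed by -0.088 ± 0.036 (limma adjusted p = 0.0653, and 0.0445 or 0.0356 without knockdown vehicle 3 or knockdown MG132 2). The Psmd10 fall passed in 6 of the 27 alternatives run (limma adjusted p down to 0.00692).

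Nfe2l1 read 11.64, 11.63, 11.65 and 11.65 on the knockdown vehicle arrays and 11.93, 12.06, 12.10 and 11.95 on the knockdown MG132 arrays and rose by 0.37 ± 0.04 (1.29-fold, limma adjusted p = 1.68e-06), with no overlap. Psmf1, Psme4 and Psme3ip1 rose by 0.27, 0.24 and 0.39, and Psme3 differed by -0.032 ± 0.032. Psmc3ip, the recombination factor, read 9.56, 9.61, 9.62 and 9.80 with vehicle and 9.28, 9.27, 9.26 and 9.20 with MG132 and fell by 0.40 ± 0.06 (limma adjusted p = 1.47e-05). Psmb11 passed at 0.14 ± 0.05 (adjusted p = 0.044). It lost the call without control vehicle 3, control MG132 1, knockdown vehicle 2, 3 or 4 or knockdown MG132 1, 2 or 4, where the adjusted p was at most 0.13. Over all 26 alternatives run, the call was lost in 13 (limma adjusted p up to 0.356).

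Averaged over the genes of a class, the arrays of a group lay close together. The mean difference of the 31 core subunits from the control vehicle group was 0.24 to 0.28 on the control MG132 arrays, lowest on array 4, and 0.28 to 0.29 on the knockdown MG132 arrays. On the knockdown vehicle arrays it was -0.017 to -0.013, and on the control vehicle arrays -0.010 to 0.011. The vehicle levels of the subunits thus differed little between the lines in sum, whereas each MG132 array stood above every vehicle array in all 4 subunit classes. The assembly class behaved otherwise. Its mean was -0.057 to -0.008 on control MG132 arrays but 0.13 to 0.20 on knockdown vehicle arrays and 0.094 to 0.14 on knockdown MG132 arrays, so the arrays of the 2 lines separated, and those of the 2 treatments overlapped within each line.

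**Figure D3:**
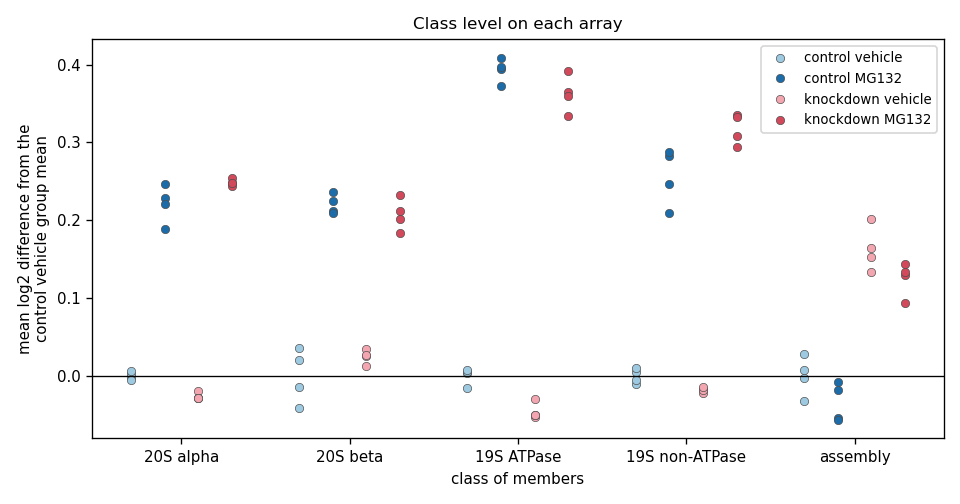
Mean log2 difference from the control vehicle group mean (vertical axis) over the genes of each class, as 1 point per array, for the 5 classes of proteasome genes and the 4 groups; the points are averages over genes and carry no error bar. In the 4 subunit classes the MG132 arrays of both lines lie above 0.18 and the vehicle arrays lie near 0, while in the assembly class the knockdown arrays lie above the control arrays.

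Set gene by gene, 27 of the 31 core subunits were past the threshold in both lines, 3 (Psma2, Psmd7 and Psmd8) in knockdown cells, and Psmb5 in neither. The responses in the 2 lines, which share no array, had r = 0.76 across the 31 genes (Spearman's rho 0.73), a description, since genes on the same arrays are not independent. The response was numerically larger in knockdown cells for 18 of the 31. A gene past the threshold in 1 line and not in the other has not been shown to differ, and the test of that is the difference of the responses itself.

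The difference of the MG132 responses, the contrast closest to the study's question, passed the threshold for 6 of the 47 members. Of these, 3 had a positive and 3 a negative difference (knockdown minus control response). A negative difference can be a smaller rise, as for Psmd9, or a larger fall, as for Psmc3ip. Of all genes tested 4.45% and 10.1% passed in these directions (either direction 14.6%). Among genes with a mean above 11 the shares were 9.21% and 8.58%. The share of the members that passed was near that of all genes. After a second quantile normalization 6 members also passed, 4 with a positive and 2 with a negative difference, and these were not all the same members. Psmd7 had the largest such difference, at 0.30 ± 0.08 (limma adjusted p = 0.0187). In knockdown cells it read 12.29, 12.17, 12.28 and 12.21 with vehicle and 12.71, 12.44, 12.55 and 12.65 with MG132, a rise of 0.35 ± 0.06 without overlap, beside 0.045 ± 0.058 in control cells. It was the single member whose difference stayed past the threshold in all alternatives run. Its arrays were spread by 0.105 (SD) in the control vehicle group and by 0.118 in the knockdown MG132 group.

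The other calls were less firm. Psma2 read 11.94, 11.88, 11.91 and 11.93 with vehicle and 12.08, 12.12, 12.18 and 12.10 with MG132 in knockdown cells, a rise of 0.20 ± 0.04, and the responses differed by 0.17 ± 0.05 (limma adjusted p = 0.032). Psma5 read 11.75, 11.68, 11.75 and 11.73 and 11.99, 11.93, 12 and 11.90 in control cells, a rise of 0.23 ± 0.03, and 11.94, 11.95, 11.98 and 11.88 and 12.31, 12.33, 12.30 and 12.32 in knockdown cells, a rise of 0.38 ± 0.03, a difference of 0.15 ± 0.05 (adjusted p = 0.0412). Both genes had the larger response in the knockdown line. Each of these arrays, when left out, ended the Psma2 call: vehicle arrays 2, 3 and 4 of control and 2 and 3 of knockdown cells, and MG132 arrays 3 and 4 of control and 2 and 3 of knockdown cells (adjusted p 0.0502 to 0.0713). For Psma5 they were vehicle arrays 1, 3 and 4 of control and 1, 2 and 4 of knockdown cells, and MG132 arrays 2 and 4 of control and 1, 2 and 4 of knockdown cells (0.0541 to 0.0925). Over all 26 alternatives run, the Psma2 call was lost in 12 and the Psma5 call in 17 (limma adjusted p up to 0.0995 and 0.181).

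On the other side stood Psmd9 and Psmg4, both assembly chaperones, and Psmc3ip. The responses of Psmd9 differed by -0.18 ± 0.05 (limma adjusted p = 0.0193), from its rise of 0.34 in control and 0.16 in knockdown cells. Psmg4 read 10.04, 9.81, 9.94 and 9.95 with vehicle and 10.00, 10.01, 9.95 and 10.03 with MG132 in control cells, which overlap, and with its fall in knockdown cells the responses differed by -0.23 ± 0.06 (adjusted p = 0.0209). Both genes had higher vehicle values in the knockdown line and nearer values with MG132. The Psmd9 call was lost in 1 of the 26 alternatives run, with median centring (limma adjusted p = 0.0505), and the Psmg4 call was also lost in some. Psmc3ip read 9.44, 9.54, 9.41 and 9.43 and 9.36, 9.34, 9.43 and 9.19 in control cells, and its responses differed by -0.27 ± 0.08 (adjusted p = 0.0267). This call was lost without vehicle arrays 3 or 4 of control or 4 of knockdown cells, or MG132 arrays 1 or 3 of control or 4 of knockdown cells (0.0515 to 0.0568). Over all 26 alternatives run, it was lost in 8 (limma adjusted p up to 0.0703). The largest differences that did not pass were those of Psmg2 and Pomp, 0.19 ± 0.07 and 0.18 ± 0.07 (adjusted p = 0.0882 and 0.104), which passed without control MG132 3 (0.0449) and without knockdown vehicle 1 (0.0117). For Psma7 the same values were 0.13 ± 0.04 and 0.0617, and 0.0426 without knockdown vehicle 1. In some of the 26 alternatives 8 members that had not passed did so. Psmb1, at -0.14, passed in 8 of them (limma adjusted p down to 0.0119). Pomp passed in 6, Psma7 in 5, Psmg2 in 4, Psmd13 in 3, Psmb3 and Psmd8 in 2 each and Psma6 in 1. For Nfe2l1 the responses differed by 0.023 ± 0.059, with a 95% interval of -0.10 to 0.15 (limma adjusted p = 0.878).

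Between the lines, the members differed in both directions. With vehicle 13 of the 47 were higher and 9 lower in knockdown cells, beside 21.5% and 17.9% of all genes tested (either direction 39.4%; among genes with a mean above 11, 31.5% and 31.5%). With MG132 the counts were 16 and 8, beside 17.7% and 20.3% (either direction 38.1%; bright genes 30.5% and 29.2%). The medians of the 31 core subunits were -0.008 and 0, with 6 higher and 7 lower with vehicle and 9 and 6 with MG132. With vehicle the shares of the members were near those of all genes. These comparisons share arrays with those of MG132 above, so their values are set side by side and not related to each other.

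**Figure D4:**
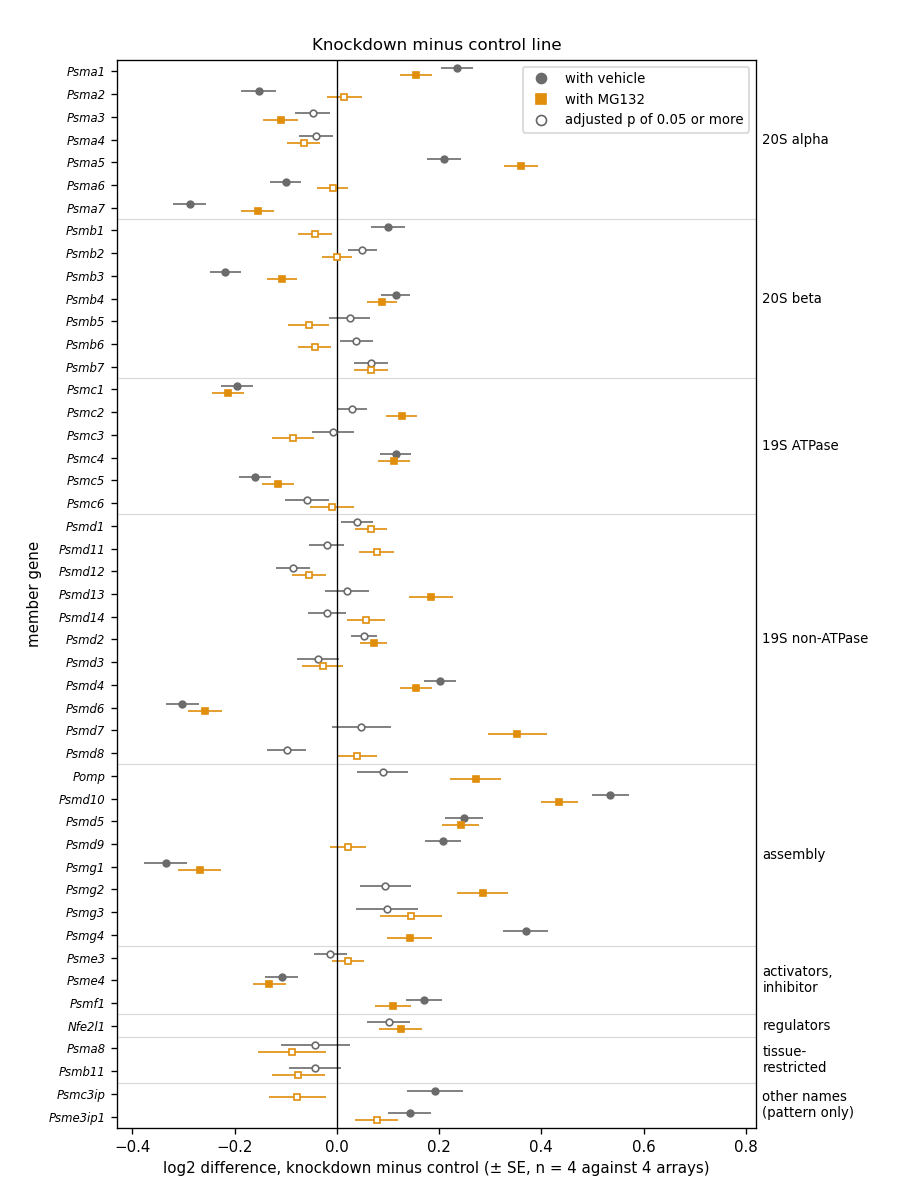
Log2 difference between knockdown and control cells (horizontal axis, ± SE, 4 against 4 arrays) of each of the 47 members with vehicle (grey circles) and with MG132 (orange squares), grouped by role; open symbols had a limma adjusted p of 0.05 or more. Psmd10 is the farthest above 0 at 0.54 and 0.43, and Psmg1 and Psmd6 are the farthest below.

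Psmd10, an assembly chaperone, had the largest line difference of the members in both conditions. It was higher on every knockdown array than on any control array of the same treatment, by 0.54 ± 0.04 with vehicle (1.45-fold) and by 0.43 ± 0.04 with MG132 (limma adjusted p = 1.95e-09 and 3.33e-08). Psmg1 was lower in knockdown cells by -0.34 and -0.27 (adjusted p = 4.45e-06 and 5.77e-05), to 0.793 of the control level with vehicle. Psmd5 was higher by 0.25 ± 0.04 and 0.24 ± 0.04 (adjusted p = 3.31e-05 and 4.49e-05). The arrays of the 2 lines did not overlap for any of these 3 genes in either condition.

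Psmg4 was higher in knockdown cells by 0.37 ± 0.04 with vehicle (limma adjusted p = 2.35e-06) and by 0.14 ± 0.04 with MG132 (adjusted p = 0.0161), and the second call was lost without control MG132 3 or knockdown MG132 2 (0.0504 and 0.0612). Psmd9 was higher by 0.21 ± 0.04 with vehicle (adjusted p = 0.000116) and differed by 0.022 ± 0.035 with MG132 (adjusted p = 0.697). Psmg2 and Pomp were higher with MG132, by 0.28 ± 0.05 and 0.27 ± 0.05 (adjusted p = 0.000168 and 0.000273), where the arrays of the lines stood apart, and differed by 0.095 ± 0.05 and 0.090 ± 0.05 with vehicle (adjusted p = 0.16 and 0.189). Of the 8 assembly factors 4 were higher and 1 lower with vehicle, and 5 and 1 with MG132, with medians of 0.15 and 0.19. Psmg3 did not pass in either, though with MG132 it did without control MG132 1 or 4 (limma adjusted p 0.0481 and 0.00819).

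Of the subunits, Psmd6, a lid subunit, was lower in knockdown cells. It read 12.29, 12.32, 12.37 and 12.36 on control vehicle and 12.05, 12.06, 11.98 and 12.04 on knockdown vehicle arrays, a difference of -0.30 ± 0.03 (limma adjusted p = 7.64e-07). With MG132 it read 12.64, 12.65, 12.65 and 12.60 in control and 12.44, 12.37, 12.34 and 12.36 in knockdown cells, a difference of -0.26 ± 0.03 (adjusted p = 5.66e-06). The lines were apart in both conditions, and the gene rose with MG132 by similar amounts, 0.30 and 0.34. Psma7 read 11.57, 11.49, 11.50 and 11.53 and 11.85, 11.88, 11.91 and 11.87 in control cells and was lower in knockdown cells by -0.29 with vehicle and -0.15 with MG132 (adjusted p = 1.02e-06 and 0.000768).

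In the opposite direction Psma1 was higher in knockdown cells by 0.23 ± 0.03 and 0.15 ± 0.03, Psma5 by 0.21 ± 0.03 and 0.36 ± 0.03, and Psmd4 by 0.20 ± 0.03 and 0.15 ± 0.03 (vehicle and MG132, limma adjusted p between 1.16e-07 and 0.000648). For these 3 genes, too, no array of a line lay within the range of the other. Psmc1 was lower by -0.20 and -0.21 (adjusted p = 5.22e-05 and 2.28e-05), and its second probe set gave -0.25 and -0.090. Psmd7 differed by 0.048 ± 0.058 with vehicle (adjusted p = 0.598) and was higher by 0.35 ± 0.06 with MG132 (adjusted p = 8.63e-05). Nfe2l1 differed by 0.10 ± 0.04 with vehicle (limma adjusted p = 0.065, and 0.0252 or 0.0476 without control vehicle 1 or knockdown MG132 3). This vehicle difference passed in 7 of the 27 alternatives run (limma adjusted p down to 0.022). With MG132 Nfe2l1 passed at 0.12 ± 0.04 (adjusted p = 0.0256), and not without control MG132 3 or 4 or knockdown MG132 2 or 3 (0.0622 to 0.0961). Over all 27 alternatives run, the call with MG132 was lost in 7 (limma adjusted p up to 0.191). The arrays of the lines did not overlap for Nfe2l1 in either condition, and the exact permutation p was 0.0286 in each, the smallest that 4 against 4 arrays allow.

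Of 20 genes of NFE2L1 processing, turnover and family, 11 rose and 3 fell with MG132 in control cells and 10 rose and 6 fell in knockdown cells, with medians of 0.17 and 0.13. The shares of all genes in these directions were given above, 16.8% and 19% in control cells and 16.4% and 24.3% in knockdown cells. Ufd1 and Nploc4, the cofactors with which VCP pulls NFE2L1 out of the membrane, rose by 0.70 ± 0.04 and 0.37 ± 0.03 in control and by 0.64 ± 0.04 and 0.37 ± 0.03 in knockdown cells. Ogt, which modifies NFE2L1 with sugar, fell by 0.71 ± 0.05 and 0.68 ± 0.05, and Bach1, a repressor that reads the same letters, rose by 0.38 ± 0.03 and 0.43 ± 0.03 (limma adjusted p between 1.41e-10 and 1.25e-07 over these 8 values). The other genes that fell in both lines were Ngly1, the enzyme that removes sugar chains from NFE2L1, by 0.30 ± 0.07 and 0.31 ± 0.07, and the small MAF gene Maff, by 0.32 ± 0.07 and 0.19 ± 0.07 (adjusted p between 0.0011 and 0.0348). They, Derl1 in the difference and the lower genes of the lists below are named because their counts are small and were chosen after their values were seen.

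The responses of 5 of the 20 genes differed between the lines, 2 with a positive and 3 with a negative difference (knockdown minus control), beside 14.6% of all genes tested. Maff was not among them. Mafk differed by -0.063 ± 0.041 in control cells and rose by 0.48 ± 0.04 in knockdown cells, a difference of 0.54 ± 0.06 (limma adjusted p = 1.32e-05). Mafg rose by 0.32 ± 0.03 and 0.59 ± 0.03, a difference of 0.27 ± 0.04 (adjusted p = 0.000848). Nfe2l2 rose by 0.38 ± 0.04 in control cells and differed by 0.073 ± 0.036 in knockdown cells, a difference of -0.31 ± 0.05, and Btrc, a ubiquitin ligase subunit that takes part in NFE2L1 turnover, gave -0.36 ± 0.06 (adjusted p = 0.000657 and 0.000603). Derl1, whose product works in the same membrane exit, was the remaining call at -0.18 ± 0.05 (adjusted p = 0.023). Between the lines the shares called in either direction were near the 39.4% and 38.1% of all genes, but most of the called genes were higher. Of all genes 21.5% were higher and 17.9% lower with vehicle, and 17.7% and 20.3% with MG132. With vehicle 7 of the 20 were higher and 1 (Sel1l) lower in knockdown cells, Btrc by 0.43, Derl1 by 0.37, Nfe2l2 by 0.33 and Keap1 by 0.29 among the higher. With MG132 6 were higher and 1 (again Sel1l) lower, Mafk by 0.50, Keap1 by 0.28, Mafg by 0.24 and Derl1 by 0.19 among the higher.

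Of 21 listed proteins that bind the proteasome or bring ubiquitin to it 13 were tested. With MG132 9 rose and 1 fell in control cells, and 8 rose and 1 fell in knockdown cells, with medians of 0.21 and 0.25. Of all genes tested 16.8% were higher and 19% lower in control cells, and 16.4% and 24.3% in knockdown cells. Zfand5, a ubiquitin-binding activator of the 26S proteasome, had the largest changes of the 13, with rises of 0.88 ± 0.04 and 0.83 ± 0.04. The shuttle factor Ubqln1 rose by 0.37 ± 0.03 and 0.44 ± 0.03, and Akirin2, which carries proteasomes into the nucleus, by 0.25 ± 0.03 and 0.34 ± 0.03. Fbxo7, a partner of PSMF1, rose by 0.36 ± 0.03 and 0.29 ± 0.03, and the shuttle factor Rad23b by 0.19 ± 0.03 and 0.32 ± 0.03. The ligase gene Ube3c, whose product extends ubiquitin chains on the proteasome, fell by 0.21 ± 0.03 and 0.16 ± 0.03 (limma adjusted p of these values between 2.56e-11 and 0.000236). Between the lines 21.5% of all genes tested were higher and 17.9% lower with vehicle, and 17.7% and 20.3% with MG132. Of the 13 genes 7 were higher with vehicle, among them Ubqln2 at 0.21 and Zfand5 at 0.20. The 5 lower genes were Ubqln1 at -0.23, Txnl1, Uchl5, Usp14 and Rad23b. With MG132 6 were higher, among them Akirin2 at 0.22 and Sem1, a small lid subunit, at 0.17, and 4 lower, Ubqln1 at -0.17 and Uchl5, Txnl1 and Fbxo7. The responses of Ubqln2 and Rad23b differed, by -0.16 and 0.13 (limma adjusted p = 0.0181 and 0.0329). Of all genes tested 14.6% passed in that comparison, so the share of the 13 was near that of all genes.

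The 5 immunoproteasome genes left out of the members gave a different pattern. In neither line did any of the 5 pass the limma threshold with MG132 (0 of 5 also at an unadjusted p under 0.05), with medians of -0.030 and 0.027. Of all genes tested 35.8% passed in control and 40.7% in knockdown cells. With vehicle 4 of the 5 were higher in knockdown cells and with MG132 3, beside 21.5% and 17.7% of all genes tested. Higher in both conditions were the catalytic subunits Psmb8, by 0.46 ± 0.10 and 0.66 ± 0.10, and Psmb10, by 0.43 ± 0.06 and 0.38 ± 0.06. So was the activator subunit Psme2, by 0.31 ± 0.04 and 0.40 ± 0.04 (limma adjusted p of these values between 9.77e-07 and 0.00169). Psme1, its partner, was higher with vehicle, by 0.17. These 4 were named after their values were seen. Psmb9 gave 0.092 ± 0.066 and 0.14 ± 0.07 and did not pass.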

How the data were processed

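RNA of mouse embryonic fibroblasts was measured on 16 arrays, 1 per plate, and groups and replicate numbers came from the sample titles. The authors deposited log2 intensities per probe set, with 2 decimals, from RMA in Partek per the submitters' processing notes, which name no version or setting. RMA equalises arrays (medians 7.71 to 7.82), which would hide a shift shared by most genes. Of 35556 probe sets, 21789 carried 1 symbol in the platform annotation, which gave 19938 genes, each read from its brightest probe set. The number of arrays limits the precision.

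limma 3.58.1 (R 4.3.3) was used to fit 4 group means to the 16 arrays, with eBayes and two-sided tests on 12 residual plus 4.12 prior degrees of freedom. The fit had 5 contrasts, Benjamini-Hochberg adjustment over the 19938 genes, a threshold of 0.05, and no filter or block. It was also run on simulated data with independent noise, which does not hold the within-group gradient. The error rate in these data was therefore not tested. Fold changes are log2 differences ± SE, 4 against 4 arrays. For single values an exact permutation test, two-sided, was added, whose smallest p is 0.0286. Classes have medians and counts only. Members, classes, gene lists (proteasome-associated proteins, NFE2L1 processing and family, immunoproteasome, cell type markers) and motifs were chosen with earlier results of these data known.

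Array values were given for Nfe2l1 and Pomp, for the highest and lowest control response of each of the 5 classes and for up to 6 members with the smallest p in each line comparison and in the difference of the responses. From each pathway list, up to 4 genes with the smallest p per comparison were named. Of the 21 listed proteasome-associated genes 13 were analysed here. Of the 47 members 5 have several probe sets, which gave the same direction and call for MG132 in each line, while for the difference of the responses those of Psmc1 and Psmd2 had opposite signs.

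Alternatives were a second quantile normalization, median centring, a filter at the 25th percentile, all or averaged probe sets, only the groups compared, a trended robust prior, array weights, a block for the replicate number and the omission of each array. Leaving out 4 arrays low on the within-group gradient (the first principal component of deviations from group means), in 2 versions, was added after seeing the data. Promoter windows are RefSeq's for GRCm38.p6, while no source used here gives the build of the array design. Figures were drawn with matplotlib 3.10.9 in Python 3.11.15.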

Additional observations from a re-analysis of the deposited data

Results flagged for a closer look

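In 14 of the 188 groups of 4 arrays checked over the 47 members, the highest or lowest array lay apart from the other 3 by more than Dixon's critical value. Chance gives about 1 in 20 such groups, and with values of 2 decimals some gaps are small. Among 20S genes these were Psma3 on control MG132 3 at 12.92 (others 12.85 to 12.86), Psma4 on control MG132 4 at 12.18 (12.23 to 12.24), Psma7 on knockdown MG132 1 at 11.78 (11.70 to 11.71) and Psmb4 on control MG132 3 at 13.32 (13.37). Among ATPases they were Psmc3 on control vehicle 2 at 11.24 (11.37 to 11.39), Psmc4 on control vehicle 4 at 12.24 (12.17 to 12.18) and Psmc5 on control MG132 2 at 11.61 (11.54 to 11.55). Among the other cap subunits they were Psmd11 on knockdown vehicle 1 at 11.91 (11.99 to 12), Psmd12 on control vehicle 1 at 12.35 (12.42) and Psmd3 on knockdown vehicle 3 at 11.98 (12). The rest were Psmd9 on knockdown MG132 4 at 10.18 (10.23 to 10.24), Psmg1 on knockdown vehicle 2 at 10.27 (10.34 to 10.35), Pomp on control vehicle 1 at 11.42 (11.32 to 11.33) and Psme4 on control vehicle 2 at 12.09 (12.03 to 12.04). They were spread over 11 arrays, and all were kept.

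The MG132 responses differed between the lines in the limma test of the difference for Psmd7 at 0.30, Psma2 at 0.17 and Psma5 at 0.15, larger in knockdown cells, and for Psmd9 at -0.18, Psmg4 at -0.23 and Psmc3ip at -0.27 (adjusted p = 0.0187, 0.032, 0.0412, 0.0193, 0.0209 and 0.0267).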

How the results depend on the processing

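No member call reversed in any of the 9 other settings, the 16 fits without 1 array or the 2 added ones. Calls held in all of them for 31 of 36 members with MG132 in control cells, 34 of 42 in knockdown cells, 18 of 22 and 18 of 24 between the lines with vehicle and with MG132, and 1 of 6 (Psmd7) in the difference of the responses. That last count was 2 with median centring (1 higher, 1 lower) and 14 with a trended robust prior (10 and 4), and Psmd9 then missed the threshold with median centring (limma adjusted p = 0.0505). With 1 array left out the counts were 34 to 37, 39 to 42, 21 to 24, 19 to 24 and 4 to 8. The MG132 calls lost in some alternatives were those of Psma3, Psmb3, Psmb11, Psmd2 and Psmd13 in control cells. In knockdown cells they were those of Pomp, Psma3, Psmb1, Psmb11, Psmd2, Psmd9, Psmg1 and Psmg4. Between the lines they were those of Psma6, Psmb1, Psme3ip1 and Psme4 with vehicle. With MG132 they were those of Nfe2l1, Psma3, Psmb4, Psmd2, Psmf1 and Psmg4.

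Median centring moved the class medians to 0.153 (alpha), 0.192 (beta), 0.356 (ATPase), 0.188 (non-ATPase) and -0.069 (assembly) in control cells, and to 0.22, 0.165, 0.377, 0.257 and -0.152 in knockdown cells. Between the lines it gave -0.025, 0.072, -0.01 and 0.003 with vehicle for the first 4 classes and 0.008 with MG132 for the alpha class. Quantile normalization again gave 0.267 for the alpha response in knockdown cells, -0.034 for the alpha difference with vehicle, and 0.077 and -0.073 for the alpha and beta differences of the responses. The cause of these shifts was not tested. Leaving out 1 array moved the control response of the alpha class to 0.199 to 0.219, the beta class to 0.223 to 0.262 and the non-ATPase class to 0.22 to 0.264, and the knockdown response of the assembly class to -0.11 to -0.065. Between the lines the ranges were -0.061 to -0.04 (alpha) and -0.022 to 0.002 (non-ATPase) with vehicle and -0.066 to -0.028 (ATPase) with MG132, and the difference of the alpha responses ranged from 0.077 to 0.107.

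Same-numbered arrays of different groups deviated from their group means with r of -0.45 to 0.43 (median 0.093, 12 of 24 over 0.1). For arrays with other numbers r was -0.504 to 0.605 (median -0.055, 26 of 72 over 0.1). These overlapping ranges do not decide whether the numbers pair the samples. The labels do not say that they do, so no pairing was used in the main fit. With the replicate number as a block the counts were 36, 41, 22, 23 and 6. In the difference Psma2 and Psma5 were then lost (adjusted p = 0.051 and 0.0546) and Pomp and Psmg2 gained (0.0476 and 0.0443). Without the 4 arrays low on the gradient the counts were 36, 41, 22, 23 and 6, and in the other version 37, 38, 21, 20 and 4. The fit with only the groups compared has no value for the difference, which needs all arrays. Compression of bright probe sets and the lack of protein data limit the subunit comparisons.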
